A study of Homo sapiens with 7 samples.

Results

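The 10 genes described here are 5 subunits of the transcription factor AP-1 (FOS, FOSL2, JUN, JUNB and JUND) and 5 other immediate early genes (EGR1, IER2, IER3, NR4A1 and DUSP1), out of 60662 genes in the deposited tables. They were taken by gene symbol, each symbol matched 1 gene, and all 10 passed the filter on low counts in every comparison. Total RNA was sequenced from 7 libraries of PF382 and MOLT-14, a pair of human T-cell acute lymphoblastic leukaemia cell lines in which the amount of STAG2 had been changed. STAG2 is a subunit of cohesin, the ring complex that holds sister chromatids together and extrudes chromatin loops. PF382 cells with a STAG2 knockout (KO), made by delivering a Cas9 ribonucleoprotein with guide RNA, gave 3 libraries, and untreated wild-type PF382 cells (WT) gave 2. MOLT-14 cells gave 1 library after STAG2 transduction and 1 after empty vector transduction (EV). All cells were grown in RPMI medium with fetal bovine serum, and no agent was given to stimulate them. The labels do not say whether the PF382 libraries came from separate clones or cultures, nor which promoter drove the STAG2 vector, so p-values measure only the spread between these libraries.

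Immediate early genes are switched on within minutes of a stimulus such as serum, a growth factor or T-cell receptor engagement, without need of new protein. Several of their RNAs are short-lived, so their level follows recent signalling closely. AP-1 is a dimer that JUN proteins form with each other or with FOS proteins, and it binds the motif TGANTCA in promoters and enhancers. EGR1 and NR4A1 are transcription factors, DUSP1 is a phosphatase that switches off MAP kinases, and IER2 and IER3 are small early response proteins. Transcription of FOS and EGR1 is known to be driven by SRF with its ELK partners at CArG boxes and by CREB at TGACG motifs.

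Depth was 65262329, 93970572 and 81304948 counts in the KO libraries and 32609485 and 33145516 in the WT libraries, with 45013450 in the MOLT-14 STAG2 library and 38678382 in the EV library. STAG2 RNA was 254, 178 and 193 CPM (counts divided by the TMM-scaled library total) in the KO libraries, against 335 and 569 CPM in the WT libraries. On this scale all KO libraries were below the WT libraries but kept STAG2 RNA (log2 change -1.13 ± 0.26, SE, adjusted p = 0.0218). In the authors' TPM the groups overlapped, at 28.35, 17.8 and 18.24 TPM in the KO libraries, against 27.25 and 56.94 TPM in the WT libraries. In MOLT-14 the STAG2 library had 138 CPM, against 1.17 CPM in the EV library (6878 and 56 counts). Of the T-cell markers, CD3D was at 293 CPM or more and LCK at 499.8 CPM or more in every library, while CD2 was at 0.617 to 1.72 CPM in PF382 and 1.10 to 3.62 CPM in MOLT-14. CD7 was at 11.03 to 38.9 CPM in PF382 and 421 to 429.5 CPM in MOLT-14, and PTCRA was at most 0.181 CPM in MOLT-14. Small RNA genes took 11.96% to 13.98% of counts in the KO libraries, against 21.0% and 14.9% in the WT libraries.

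Promoter sequences of FOS, EGR1 and IER2, which were lower in PF382 KO than in WT cells, and of FOSL2, which separated the lines, are shown first. They run from 250 bases before to 50 bases after the start site (RefSeq, build GRCh38.p14). Capitals mark TGACG on either strand (CGTCA when read on the shown strand), TATAAA in FOS, the CArG boxes in EGR1, CCGGAA in IER2 (TTCCGG as shown) and TGANTCA in FOSL2. All 4 lie on the plus strand, at chr14:75278578-75278877 for FOS, chr5:138465229-138465528 for EGR1, chr19:13150161-13150460 for IER2 and chr2:28392608-28392907 for FOSL2.
FOS: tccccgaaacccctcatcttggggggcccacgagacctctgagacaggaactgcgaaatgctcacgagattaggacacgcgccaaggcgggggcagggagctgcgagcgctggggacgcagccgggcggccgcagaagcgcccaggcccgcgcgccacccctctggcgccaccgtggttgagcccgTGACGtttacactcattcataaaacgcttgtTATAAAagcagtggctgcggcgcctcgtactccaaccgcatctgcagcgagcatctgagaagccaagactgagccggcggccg
EGR1: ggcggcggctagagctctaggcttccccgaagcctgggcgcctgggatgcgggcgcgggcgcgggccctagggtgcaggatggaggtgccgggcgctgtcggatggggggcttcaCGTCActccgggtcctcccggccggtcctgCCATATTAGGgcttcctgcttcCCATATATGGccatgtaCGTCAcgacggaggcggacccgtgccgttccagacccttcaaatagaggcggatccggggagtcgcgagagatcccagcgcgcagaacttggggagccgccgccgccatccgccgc
IER2: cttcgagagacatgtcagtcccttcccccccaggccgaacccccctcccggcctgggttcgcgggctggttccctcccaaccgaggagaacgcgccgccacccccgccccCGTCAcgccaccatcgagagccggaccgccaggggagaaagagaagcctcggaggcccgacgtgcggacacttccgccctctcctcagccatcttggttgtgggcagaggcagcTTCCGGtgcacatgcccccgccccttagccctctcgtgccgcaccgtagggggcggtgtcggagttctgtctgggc
FOSL2: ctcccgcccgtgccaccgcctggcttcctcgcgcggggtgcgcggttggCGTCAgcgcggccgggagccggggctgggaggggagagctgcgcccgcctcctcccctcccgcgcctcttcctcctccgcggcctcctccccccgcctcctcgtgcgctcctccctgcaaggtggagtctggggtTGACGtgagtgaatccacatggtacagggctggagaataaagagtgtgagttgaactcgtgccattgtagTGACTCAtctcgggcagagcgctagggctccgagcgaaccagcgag
In FOS the TGACG match began 64 bases before the start site and the TATAAA match 33 bases before it. EGR1 held a pair of CArG boxes, beginning 105 and 83 bases before the start site. No other of the 9 genes in the promoter table held any within this window. IER3 was not in that table, so its promoter was not searched. Sequence further from the start site was not searched, so sites of FOS or other genes beyond the window would be missed. CArG boxes were found in 1.29% of all 35116 promoters in that table. TGACG, searched on both strands, was in the promoters of 8 of the 9 genes and in 24.6% of all promoters. Its longer form TGACGTCA, which overlaps it, was in DUSP1 and JUND and in 1.85% of all promoters. TGANTCA was in FOSL2 only, beginning at base 5 after the start site, and in 7.71% of all promoters. TATAAA was in DUSP1, FOS and JUNB and in 11.5% of all promoters. The EGR1-type motif GCGGGGGCG was in 0 of the 9 and in 5.07% of all promoters. CCGGAA, the core bound by ETS factors such as ELK1, was in IER2 and NR4A1 and in 17.2% of all promoters. GGGCGG was in 7 of the 9 and in 45.0% of all promoters, and CCAAT was in JUN, JUNB and JUND and in 34.6%. A match is a description of these letters, not a site shown to be bound.

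By their medians the 10 genes were compact in GENCODE 29, with NR4A1 (a span of 36676 bases and 8 exons) and FOSL2 (24865 bases) as exceptions. The median span of the 10 was 3498 bases, against 32380 bases for the 13019 protein-coding genes tested in PF382. They had a median of 2 exons against 9, and 4 of the 10 had a single exon against 2.74% of genes. The element ATTTA, a known mark of unstable messages, was in the 3' UTR of 9 of the 10 (65.1% of genes), and the longer TATTTAT in 6 of the 10 (29.7% of genes). IER2 was the one without ATTTA. JUNB, IER2, IER3 and NR4A1 overlap an antisense gene, and since the strand setting is not given, reads of the partners cannot be told apart. HOOK2, the partner of JUNB, had 6.12 to 16.7 CPM, while the partners of IER2, IER3 and NR4A1 had at most 0.325 CPM.

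The comparison of PF382 KO with WT asked whether the 10 genes move with loss of STAG2. FOS and IER3 were lower in KO cells by 4.11-fold and 3.15-fold, and EGR1 and IER2 by 1.86-fold and 1.82-fold. None of the 10 was higher beyond the test. Across all 17442 genes tested, 30.4% were called in either direction. Of the 10, 4 were called lower at an adjusted p under 0.05, where 14.6% of all genes were called lower, and 0 were called higher, where 15.8% were. DESeq2 called 5 of the 10 lower and 0 higher, where it called 2856 of all 17442 genes lower and 3343 higher. At an unadjusted p under 0.05 edgeR had 5 lower and 0 higher, and no share over all genes was taken at that threshold. The median log2 change of the 10 was -0.71, against -0.020 over all genes tested. With upper-quartile scaling the median of all genes moved to -0.18 and the share of calls that were higher to 33.8%, against 52.0% in the comparison as reported. Changes are therefore given relative to TMM scaling. In bulk RNA, fewer cells that express a gene and less RNA per cell cannot be told apart.

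**Figure D1:**
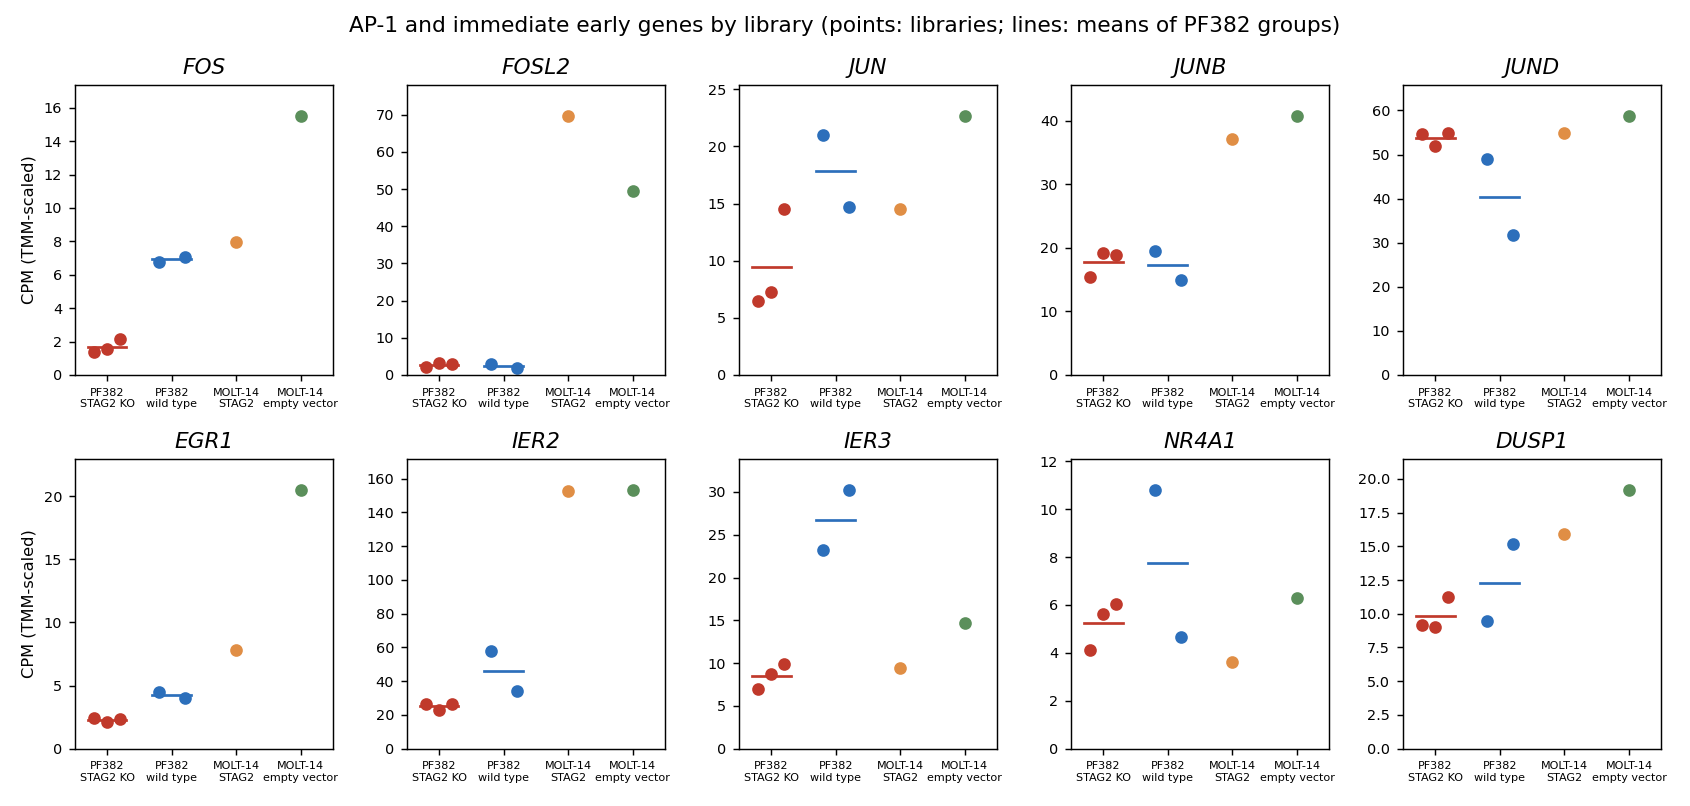
TMM-scaled CPM of each of the 10 genes in the 7 libraries, 1 panel per gene with its own linear axis from 0, 1 point per library and a line at the mean of each PF382 group. FOS lies between 1.38 and 2.15 CPM in the KO libraries, below both WT libraries, and FOSL2 separates the lines.

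FOS, the AP-1 subunit known for the steepest and briefest induction, had 1.38, 1.54 and 2.15 CPM in the KO libraries, against 6.77 and 7.06 CPM in the WT libraries. The groups did not overlap, and the WT libraries differed from each other by 1.04-fold. The log2 change was -2.04 ± 0.27 (SE, adjusted p = 0.00475, 3 KO against 2 WT libraries, edgeR quasi-likelihood test with Benjamini-Hochberg adjustment). FOS rested on 85 to 159 counts in the KO libraries. FOS (ENSG00000170345) spans chr14:75278774-75282230 on the plus strand.

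FOSL2, a FOS relative with slower kinetics, had 2.11, 3.18 and 3.02 CPM in the KO libraries, against 2.88 and 1.79 CPM in the WT libraries, and the groups overlapped. Its log2 change was 0.24 ± 0.33 (adjusted p = 0.608). So FOS was lower while the change of FOSL2 lay within its error, with a 95% interval of -0.55 to 1.03.

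JUN, the main transactivating partner of FOS, had 6.51, 7.22 and 14.5 CPM in the KO libraries, against 21.0 and 14.7 CPM in the WT libraries. The KO libraries all lay below the WT libraries, but KO library 3 came close to WT library 2. The log2 change was -0.93 ± 0.37 and did not pass (adjusted p = 0.103). DESeq2 put it past the threshold (adjusted p = 0.0474), as did edgeR without KO library 3 (log2 -1.40, adjusted p = 0.0338).

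JUNB, a weaker activator than JUN, had 15.4, 19.2 and 18.8 CPM in the KO libraries, against 19.5 and 15.0 CPM in the WT libraries. In TMM-scaled CPM the groups overlapped and the log2 change was 0.041 ± 0.18 (adjusted p = 0.878), with a sign that turned to -0.13 under upper-quartile scaling. In the authors' TPM all KO libraries (4.68, 5.09 and 4.72) lay above both WT libraries (4.14 and 4.15). JUND, the JUN gene that most cells express without stimulus, had 54.7, 52.1 and 54.8 CPM in the KO libraries, against 49.1 and 31.9 CPM in the WT libraries. In TMM-scaled CPM it was the only one of the 10 with all KO libraries above both WT libraries, where 30.7% of all genes tested had that order. Its log2 change of 0.41 ± 0.19 did not pass (adjusted p = 0.145), and without WT library 1 it was called higher (log2 0.76, adjusted p = 0.00460).

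EGR1, a zinc finger factor that binds GC-rich promoters, had 2.45, 2.08 and 2.39 CPM in the KO libraries, against 4.51 and 4.03 CPM in the WT libraries. Every KO library was lower, and the log2 change was -0.90 ± 0.23 (adjusted p = 0.0304). NR4A1, an orphan nuclear receptor induced by T-cell receptor signals, had 4.11, 5.63 and 6.06 CPM in the KO libraries, against 10.8 and 4.65 CPM in the WT libraries. The groups overlapped, since the WT libraries differed from each other by 2.32-fold, and the log2 change of -0.56 ± 0.38 did not pass (adjusted p = 0.295). Without WT library 2 NR4A1 was called lower (log2 -1.02, adjusted p = 0.0285), and without WT library 1 its sign turned (log2 0.18).

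IER2, a nuclear protein, had 26.6, 22.8 and 26.7 CPM in the KO libraries, against 57.9 and 33.9 CPM in the WT libraries. All KO libraries were lower, and the log2 change was -0.86 ± 0.23 (adjusted p = 0.0319). IER3, a gene known for its induction by NF-kB and stress and its part in cell survival, had 7.01, 8.68 and 9.89 CPM in the KO libraries, against 23.2 and 30.3 CPM in the WT libraries. The groups were far apart, with a log2 change of -1.66 ± 0.20 (adjusted p = 0.00397). IER3 (ENSG00000137331) spans chr6:30743199-30744554 on the minus strand.

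DUSP1 had 9.17, 9.02 and 11.2 CPM in the KO libraries, against 9.44 and 15.2 CPM in the WT libraries. The groups overlapped, and its log2 change of -0.34 ± 0.25 did not pass (adjusted p = 0.332). Without WT library 1 it was called lower (log2 -0.63, adjusted p = 0.0477), and without WT library 2 its sign turned (log2 0.074). Counted by order alone in TMM-scaled CPM, 5 of the 10 had all KO libraries below both WT libraries, where 29.2% of all genes did, and 4 overlapped.

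FOS and IER3 were called lower whichever PF382 library was left out. Of these 5 fits, EGR1 and IER2 were called in the one without WT library 2. They lost the call without WT library 1 (adjusted p = 0.0523 and 0.0573) or without any one KO library (adjusted p of 0.0811 to 0.115). The EGR1 log2 change kept its size in all 5 fits (-0.95 to -0.80), as did that of IER2 without a KO library (-0.92 to -0.80), while without WT library 1 it was -0.42 for IER2. Without KO library 1 or KO library 2, 2 of the 10 were called lower. Over all genes, 1244 of 16990 were called lower without KO library 1 and 1103 of 16586 without KO library 2. With all 5 libraries, 2548 of 17442 were called lower. Library titles carry the letters SA or SB, whose meaning the labels do not give, and both WT libraries and KO library 1 carry SA. Among these 3 libraries alone, where the lone KO library is assumed to vary like the WT libraries, IER3 was called (log2 -1.96, adjusted p = 0.0380). FOS kept its size there (log2 -2.35) but not its call (adjusted p = 0.0799). The SB libraries are all KO, so no comparison within SB can be made.

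**Figure D2:**
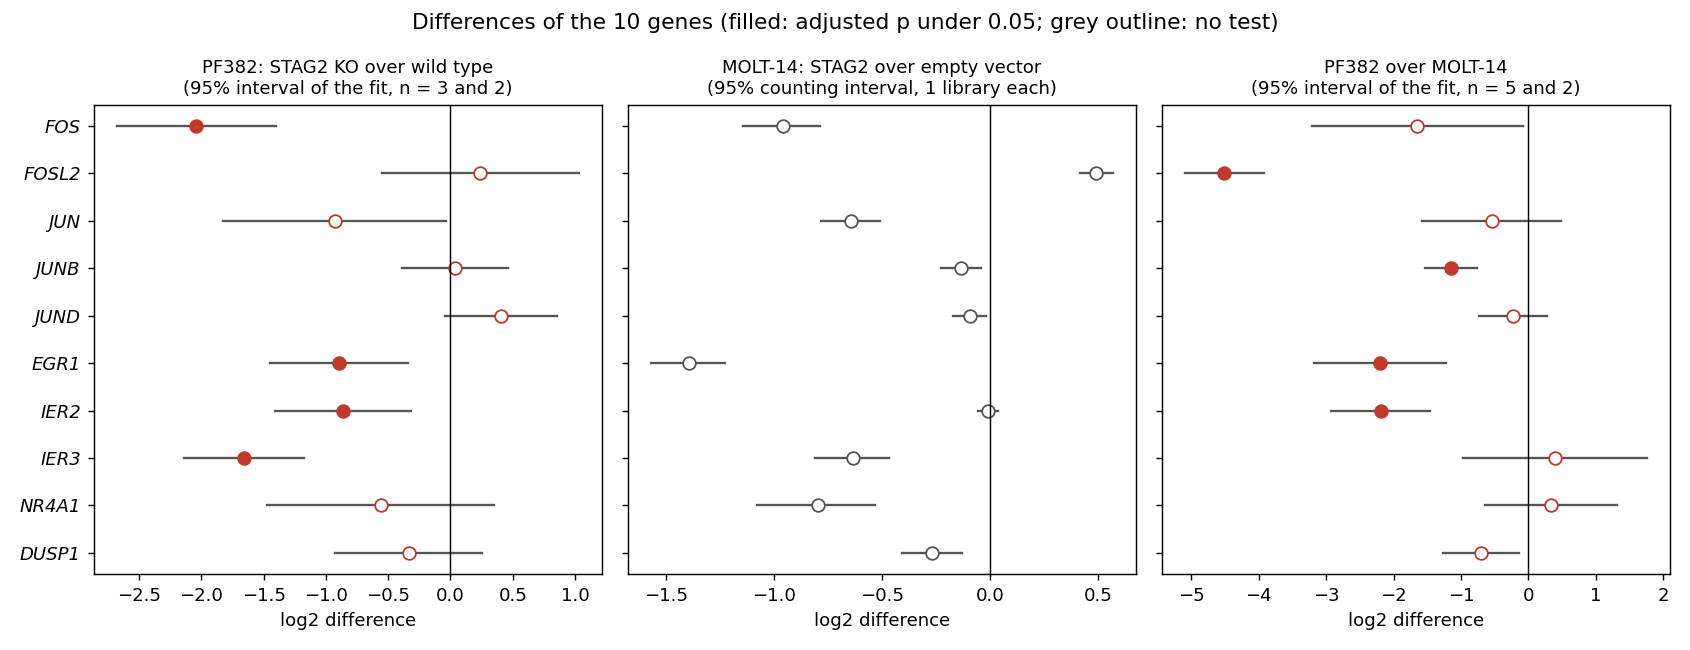
Log2 differences of the 10 genes in PF382 KO against WT, in MOLT-14 STAG2 against EV, and in PF382 against MOLT-14; bars are 95% intervals, which cover counting error only in MOLT-14. FOS, IER3, EGR1 and IER2 passed the test in PF382, and FOSL2 stands at -4.51 between the lines.

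Other genes of the same response were read from lists. Of 31 other immediate early genes, 27 were tested in PF382. Of these, 12 were called lower and 0 higher (8 to 13 lower when 1 library was left out), against the 14.6% of all genes called lower, and DESeq2 called 13 lower and 1 higher. At an unadjusted p under 0.05, 16 were lower and 2 higher. Their median log2 change was -0.92. Of those called lower, EGR2 and NR4A3 were at most 0.0405 and 0.108 CPM in the KO libraries. They entered the test only through the WT libraries. Genes this low in KO cells could be called only lower, so these calls, which are among the 12, lend no support. The list was chosen with earlier results of these data known. BTG1, an antiproliferative gene, had 24.6, 24.7 and 29.5 CPM in the KO libraries, against 70.4 and 76.3 CPM in the WT libraries (log2 -1.49 ± 0.13, adjusted p = 0.00244). GADD45B, a stress sensor that acts on MAP kinase signalling, had 6.21, 5.52 and 7.36 CPM in the KO libraries, against 24.4 and 22.9 CPM in the WT libraries (log2 -1.90 ± 0.17, adjusted p = 0.00269). PPP1R15A, which helps to dephosphorylate the translation factor eIF2 alpha, had 12.5, 17.3 and 15.9 CPM in the KO libraries, against 45.7 and 43.2 CPM in the WT libraries (log2 -1.55 ± 0.16, adjusted p = 0.00301). All 3 separated the groups without overlap.

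Among 12 tested genes of the wider AP-1 and bZIP family, 3 were called lower and 0 higher, where 14.6% and 15.8% of all genes were. At an unadjusted p under 0.05, 5 were lower and 0 higher, and DESeq2 called 3 lower and 0 higher. The median log2 change of this family was -0.34. ATF3, a stress-induced repressor, averaged 3.81 ± 0.64 CPM in KO and 16.0 ± 11.1 CPM in WT libraries (SD, n = 3 and 2; log2 -2.07, adjusted p = 0.0160). JDP2, a repressor that dimerises with JUN, averaged 0.55 ± 0.16 CPM in KO and 6.02 ± 6.16 CPM in WT libraries (log2 -3.46, adjusted p = 0.0164). For ATF3 and JDP2 most of the WT mean came from WT library 1, with 23.8 and 10.4 CPM, against 8.13 and 1.66 CPM in WT library 2.

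**Figure D3:**
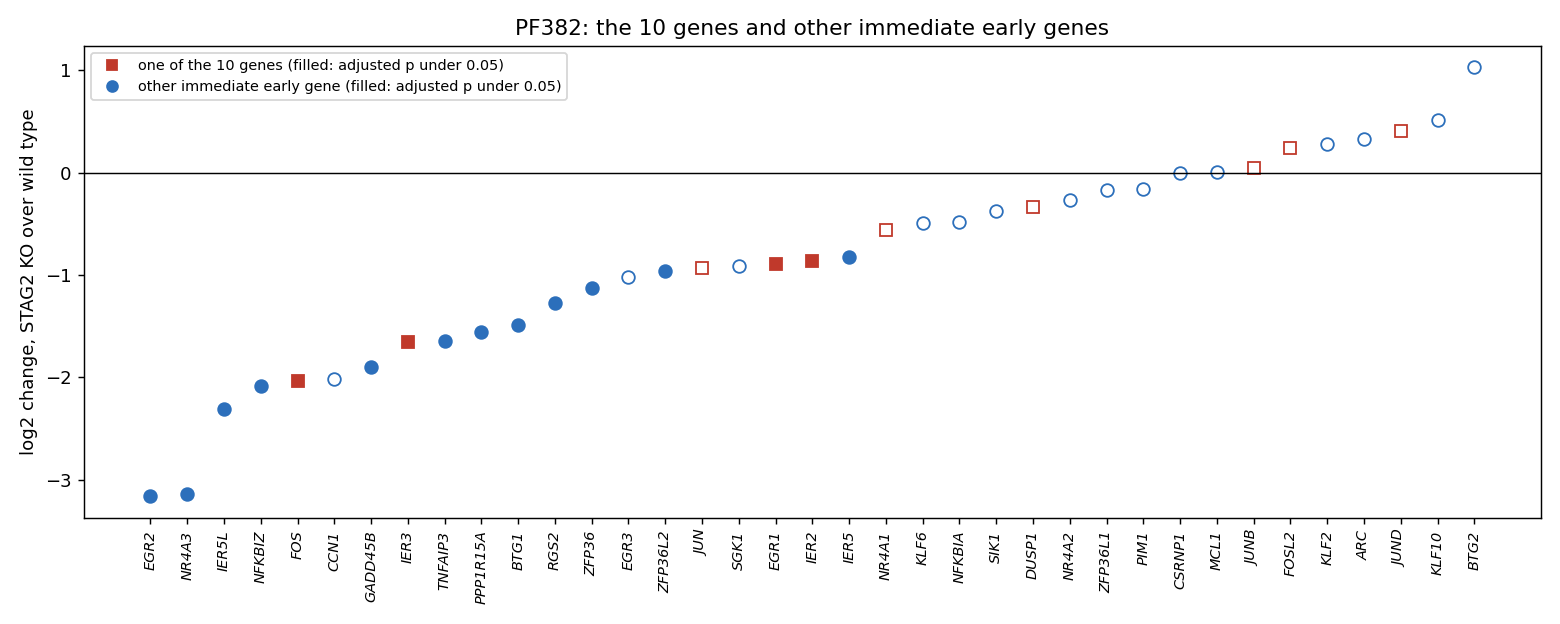
Log2 change of PF382 KO against WT (vertical axis) for the 10 genes (squares) and for the other immediate early genes that were tested (circles), in order of the change, filled where the adjusted p was under 0.05. Of the other genes 12 of 27 were called lower and 0 higher. The 12 include EGR2 and NR4A3, which entered the test only through the WT libraries.

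Lists of upstream regulators, phosphatases and AP-1 targets held fewer calls, and none had a share called above the 30.4% of all genes. Of 12 SRF, ELK and CREB genes, 1 was called higher and 1 lower, with a median log2 change of 0.18. ELK3, a ternary complex factor that can repress SRF targets, averaged 4.57 ± 1.33 CPM in KO and 1.98 ± 0.04 CPM in WT libraries (log2 1.20, adjusted p = 0.0317). CRTC2, a coactivator of CREB, averaged 10.3 ± 0.46 CPM in KO and 15.9 ± 3.24 CPM in WT libraries (log2 -0.64, adjusted p = 0.0393). Of 19 MAP kinase cascade genes, 2 were called higher and 0 lower, with a median of 0.27 (9 and 0 at an unadjusted p under 0.05; DESeq2 called 7 and 0). HRAS, the small GTPase, averaged 20.7 ± 1.07 CPM in KO and 7.69 ± 0.25 CPM in WT libraries (log2 1.42, adjusted p = 0.00298). MAP2K4, a kinase of the JNK and p38 branch, averaged 73.2 ± 4.36 CPM in KO and 49.7 ± 0.09 CPM in WT libraries (log2 0.55, adjusted p = 0.0140).

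Of 10 other dual-specificity phosphatases, which dampen MAP kinases, 1 was called higher and 1 lower, with a median of -0.53. DUSP16, which acts on JNK, averaged 8.77 ± 1.27 CPM in KO and 32.5 ± 7.52 CPM in WT libraries (log2 -1.90, adjusted p = 0.00311). DUSP14 averaged 28.0 ± 2.59 CPM in KO and 19.1 ± 2.41 CPM in WT libraries (log2 0.55, adjusted p = 0.0316). Of 14 AP-1 target genes, 8 were tested, and 1 was called lower and 0 higher (2 and 1 at an unadjusted p under 0.05; DESeq2 called 2 and 1), with a median of -0.45. That gene was CCND1, the G1 cyclin, at 0.18 ± 0.05 CPM in KO and 2.76 ± 2.39 CPM in WT libraries (log2 -3.96, adjusted p = 0.00771).

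Heat shock genes and some markers of other cells also differed between the KO and WT libraries. Of 11 heat shock genes, 6 were called lower and 3 higher, where 14.6% and 15.8% of all genes tested were. The higher ones were HSPA8 (2812 to 3427 CPM in KO, against 1142 and 1631 CPM in WT libraries), HSPD1 (647 to 734 CPM in KO, against 318 and 438 CPM in WT libraries) and HSPE1 (165 to 174 CPM in KO, against 60.6 and 93.5 CPM in WT libraries). HSPA6, the strictly inducible HSP70 gene, had 0.276, 0.240 and 0.0945 CPM in the KO libraries, against 85.4 and 168 CPM in the WT libraries. HSPA1B averaged 57.0 ± 5.38 CPM in KO and 833 ± 284 CPM in WT libraries, and HSPA1A 37.3 ± 23.5 CPM in KO and 566 ± 213 CPM in WT libraries. HSPA1A and HSPA1B are near-identical copies, so the split between them is uncertain.

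Of 7 myeloid markers, 3 were tested and all 3 (CD68, ITGAM and CTSG) were called lower. CD68 and CTSG were at most 0.135 and 0.202 CPM in the KO libraries and entered the test only through the WT libraries. A gene this low in KO cells could be tested only if it was higher in WT cells, so these calls lend no support. The list summed to 0.864 to 1.51 CPM in the KO libraries, against 33.3 to 41.2 CPM in the WT libraries, while CD14, LYZ, MPO and CSF1R were at most 0.0675 CPM in every PF382 library. Of the B-lineage, erythroid and stromal markers, BLNK (of 2 tested), ITGA2B (of 1) and KRT8 (of 4) were called lower. BLNK, ITGA2B and KRT8 too entered the test only through the WT libraries. Summed levels of these lists in KO and WT libraries were 3.89 to 19.1 and 9.44 to 41.3 CPM for B-lineage, 0.114 to 0.366 and 0.813 to 0.878 CPM for erythroid and platelet, and 53.1 to 57.3 and 66.4 to 71.8 CPM for stromal and epithelial markers. The B-lineage sums overlapped between the groups. Of 10 T-cell markers, CD5 alone was called, at 54.2 ± 3.38 CPM in KO and 104 ± 11.0 CPM in WT libraries, and the list summed to 2088 to 2437 CPM in KO and 2355 to 2667 CPM in WT libraries. The part of the heat shock response, these markers and the small RNA share in the lower FOS, IER3, EGR1 and IER2 levels was not tested.

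In MOLT-14 the comparison ran the other way, with STAG2 added to a line that had almost none, and rested on 1 library a group. EGR1 was lower in the STAG2 library by log2 -1.39 and FOS by log2 -0.96, while FOSL2 was higher by log2 0.49. Of the 10 genes, 9 were lower in the STAG2 library, where 45.9% of the 11142 genes that reached 5 CPM in either of these libraries were. Among the 9 was IER2, whose log2 ratio of -0.0097 turned to 0.0062 with TMM over the 2 MOLT-14 libraries alone. At 2-fold or more, 1 of the 10 was lower and 0 higher, where 0.844% and 1.01% of genes were. The median of the 10 was -0.45, against 0.027 over all genes. These values have no replicate check, and intervals are exact binomial ones at 95% for the counting error alone, because without molecular identifiers several reads can come from 1 molecule.

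EGR1 had 7.79 CPM in the STAG2 library and 20.5 CPM in the EV library (interval of the log2 ratio -1.57 to -1.23). FOS had 7.95 CPM in the STAG2 library and 15.5 CPM in the EV library (interval -1.14 to -0.79). Both were lower with STAG2 by more than counting error. NR4A1 had 3.60 CPM in the STAG2 library and 6.29 CPM in the EV library (log2 -0.80), JUN 14.5 CPM in the STAG2 library and 22.7 CPM in the EV library (log2 -0.64), and IER3 9.39 CPM in the STAG2 library and 14.6 CPM in the EV library (log2 -0.64). DUSP1 followed with 15.9 CPM in the STAG2 library and 19.2 CPM in the EV library (log2 -0.27). JUNB had 37.1 CPM in the STAG2 library and 40.7 CPM in the EV library (log2 -0.13), and JUND 55.0 CPM in the STAG2 library and 58.8 CPM in the EV library (log2 -0.095).

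IER2 was nearly level in TMM-scaled CPM, at 152 CPM in the STAG2 library and 153 CPM in the EV library, with an interval of -0.056 to 0.037. FOSL2 alone was higher on this scale, at 69.7 CPM in the STAG2 library and 49.6 CPM in the EV library (interval 0.41 to 0.57). With total counts in place of TMM, FOS also passed 2-fold (log2 -1.13). The MOLT-14 differences depended on the scale: in the authors' TPM, IER2 was at 50.0 in the STAG2 library and 74.21 in the EV library, FOSL2 at 8.08 in the STAG2 library and 8.12 in the EV library, and FOS at 6.91 in the STAG2 library and 21.35 in the EV library. Mitochondrial genes took 1.43% of counts in the STAG2 library and 4.92% in the EV library, and small RNA genes 9.27% in the STAG2 library and 4.87% in the EV library. The part of these shares in the differences was not tested.

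Of 19 other immediate early genes with at least 5 CPM in MOLT-14, 14 were lower in the STAG2 library, 4 of them by 2-fold or more, and 0 were higher by 2-fold. GADD45B had 13.7 CPM in the STAG2 library and 40.9 CPM in the EV library (log2 -1.57). IER5L (log2 -1.32), SGK1 (-1.17) and ARC (-1.34) were the other 3, named after their values were seen. Of 8 other AP-1 and bZIP genes, 5 were lower and 2 by 2-fold or more. Among these was FOSB, a FOS paralog, at 7.60 CPM in the STAG2 library and 17.3 CPM in the EV library (log2 -1.18), named after its values were seen. The summed myeloid markers were 14.6 CPM in the STAG2 library and 16.6 CPM in the EV library.

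With low STAG2, FOS, EGR1 and IER3 were lower in PF382, and in MOLT-14 their CPM were higher in the EV library. IER2, the other gene called lower in PF382, was level in MOLT-14. The difference was tested as the KO minus WT change in PF382 less the EV minus STAG2 change in MOLT-14, with the lone MOLT-14 libraries assumed to vary like the PF382 groups. FOS gave a difference of log2 -2.97 ± 0.48 (SE, adjusted p = 0.0570), made of -2.04 in PF382 and 0.96 in MOLT-14. EGR1 gave -2.26 ± 0.38 and IER3 -2.26 ± 0.39 (adjusted p = 0.0586 each), and IER2 gave -0.84 ± 0.41 (adjusted p = 0.298). By edgeR, 0 of the 10 were called, where 0.607% of 20100 genes were, and 3 were at an unadjusted p under 0.05; DESeq2 was not run on this contrast. With either WT library left out some of the 10 were called, but those fits rest on 1 WT library and no share over all genes was taken for them. Without a KO library the adjusted p of FOS, EGR1 and IER3 ran from 0.169 to 0.210. GADD45B was the 1 called gene of 29 other immediate early genes (log2 -3.44, adjusted p = 0.0477). At an unadjusted p under 0.05 in the same edgeR test, 14 of the 29 had a negative difference and 0 a positive one. No share over all genes was taken at that threshold.

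Between the lines, at whatever STAG2 level, FOSL2 differed most. Of 18644 genes tested, 42.5% were called in either direction. The 4 of the 10 called lower in PF382 than in MOLT-14 were FOSL2, EGR1, IER2 and JUNB, where 22.0% of all genes were called lower, and 0 were called higher, where 20.5% were. DESeq2 called 6 lower and 0 higher, and at an unadjusted p under 0.05 edgeR had 6 lower and 0 higher. No share over all genes was taken for these counts, so they are not set against a background. The median of the 10 was log2 -0.92, against -0.013 over all genes. These fits use the same libraries as the comparisons above and are not independent of them. They set 5 PF382 libraries, of which 3 were KO, against 2 MOLT-14 libraries.

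FOSL2 was 1.79 to 3.18 CPM in the 5 PF382 libraries (median 2.88), against 69.7 and 49.6 CPM in MOLT-14. The lines were far apart, 22.8-fold lower in PF382 (log2 -4.51 ± 0.26, adjusted p = 1.66e-05, edgeR with the line as the factor). EGR1 was 2.08 to 4.51 CPM in PF382 (median 2.45), against 7.79 and 20.5 CPM in MOLT-14 (log2 -2.20 ± 0.43, adjusted p = 0.00444), but without the EV library its call was lost (log2 -1.33, adjusted p = 0.0941). IER2 was 22.8 to 57.9 CPM in PF382 (median 26.7), against 152 and 153 CPM in MOLT-14 (log2 -2.19 ± 0.32, adjusted p = 0.00132). JUNB was 15.0 to 19.5 CPM in PF382 (median 18.8), against 37.1 and 40.7 CPM in MOLT-14 (log2 -1.15 ± 0.17, adjusted p = 0.00140). FOSL2, IER2 and JUNB were called whichever of the 7 libraries was left out.

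FOS was 1.38 to 7.06 CPM in PF382 (median 2.15), against 7.95 and 15.5 CPM in MOLT-14, without overlap, but did not pass (log2 -1.65 ± 0.68, adjusted p = 0.0836). DUSP1, at 9.02 to 15.2 CPM in PF382, against 15.9 and 19.2 CPM in MOLT-14, had the same order and just missed the threshold (log2 -0.70 ± 0.25, adjusted p = 0.0505). DESeq2 called both (adjusted p = 0.0445 for FOS and 0.0259 for DUSP1), and so did a fit of the 4 groups (0.00131 and 0.0417). Without WT library 1 FOS was called (adjusted p = 0.0476), and without WT library 2 both were (0.0434 for FOS and 0.00729 for DUSP1). JUND too had no overlap (31.9 to 54.8 CPM in PF382, against 55.0 and 58.8 CPM in MOLT-14), and did not pass (log2 -0.23 ± 0.22, adjusted p = 0.428).

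By order alone 7 of the 10 had every PF382 library below both MOLT-14 libraries, where 30.7% of genes did. The other 3 overlapped in CPM, with adjusted p values of 0.360 for JUN (log2 -0.54 ± 0.45), 0.626 for IER3 (0.39 ± 0.59) and 0.558 for NR4A1 (0.34 ± 0.43). These differences too depended on the scale. In the authors' TPM, JUN did not overlap (0.93 to 2.2 in PF382, against 2.82 and 6.5 in MOLT-14), while IER3 and NR4A1 did. JUND was at 8.66 to 17.94 TPM in PF382, against 40.77 and 66.79 TPM in MOLT-14. Of the other immediate early genes, 7 of 28 were called lower in PF382 and 2 higher, and of the other AP-1 and bZIP genes 4 of 12 were called lower and 3 higher. Against the 22.0% of all genes called lower and the 20.5% called higher, the 7 of 28 is near the background.

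Levels of different genes were compared within a library in TPM, the authors' transcript abundance, which allows for gene length. The order in PF382 KO cells was JUND (15.4 ± 2.30 TPM, SD, n = 3), IER2 (5.54 ± 0.89), JUNB (4.83 ± 0.23), IER3 (3.56 ± 0.28), DUSP1 (2.40 ± 0.21), JUN (1.22 ± 0.47), NR4A1 (1.19 ± 0.19), FOS (0.77 ± 0.05), EGR1 (0.35 ± 0.05) and FOSL2 (0.20 ± 0.04). IER2 and JUNB, and JUN and NR4A1, lay within their SD of each other. In WT cells JUND led as well (10.4 ± 2.48 TPM, SD, n = 2), with IER3 (10.2 ± 3.85) and IER2 (8.89 ± 1.76) within its spread. In both MOLT-14 libraries IER2 led, at 50.0 TPM in the STAG2 library and 74.2 TPM in the EV library, ahead of JUND at 40.8 TPM in the STAG2 library and 66.8 TPM in the EV library. FOSL2 was lowest in PF382 and NR4A1 in MOLT-14.

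Within AP-1, RNA of the JUN genes outweighed that of FOS and FOSL2 in every library, and by more in KO cells. The ratio of summed TPM (JUN, JUNB and JUND over FOS and FOSL2) was 26.2, 20.8 and 19.6 in the KO libraries, against 7.34 and 4.50 in the WT libraries. It was 3.89 in the MOLT-14 STAG2 library and 3.29 in the EV library. FOSB was not among the summed genes. Its 7.60 CPM in the MOLT-14 STAG2 library and 17.3 CPM in the EV library were close to those of FOS (7.95 and 15.5 CPM). In PF382, FOSB was at 0.568 to 1.72 CPM. JUND made up 58.5% to 76.0% of the JUN gene RNA in all 7 libraries. FOSL2 made up 18.6% to 24.0% of the FOS and FOSL2 RNA in KO libraries, against 4.56% and 6.75% in WT libraries, and 53.9% in the MOLT-14 STAG2 library, against 27.6% in the EV library. The lengths that counts and TPM together imply were not the same in all libraries for JUND (0.423 to 0.501 of the JUN length in PF382, against 0.252 to 0.263 in MOLT-14) or FOS (0.262 to 0.315 in PF382, against 0.208 to 0.224 in MOLT-14). These shares therefore depend in part on the authors' isoform estimates.

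**Figure D4:**
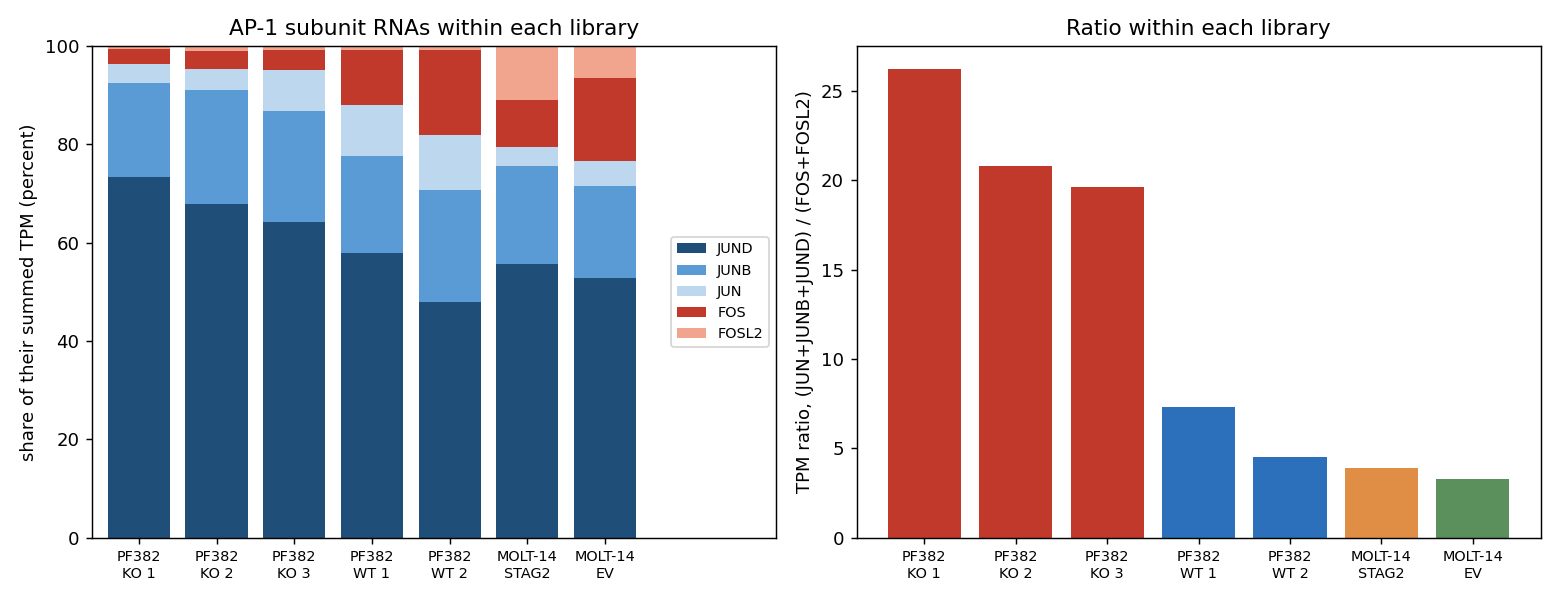
Left, share of the summed TPM of the 5 AP-1 subunits that each takes in each library, in percent. Right, TPM ratio of the JUN genes to FOS and FOSL2, which is 19.6 to 26.2 in the PF382 KO libraries and 7.34 or less in the others.

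Genes whose profile over the 7 libraries was most like the mean of the 10 were AC003665.1, PABPC1L, TMEM243, ARGLU1 and CCNL2, out of 10137 protein-coding genes with a mean of at least 5 CPM. Their root mean square differences from that mean profile were 0.131, 0.136, 0.144, 0.167 and 0.170 on the log2 CPM scale. The 10 genes themselves differed from their own mean by 0.314 (JUNB) to 1.52 (FOSL2) on the same scale. ARGLU1, for example, had 52.0, 51.3 and 52.2 CPM in the KO libraries and 79.1 and 81.6 CPM in the WT libraries, with 126 CPM in the MOLT-14 STAG2 library and 149.5 CPM in the EV library.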

How the data were processed

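Each library's file, as deposited, gave per gene an expected count (reads estimated by RSEM, not normalised, per the file headers), and the authors' TPM; FPKM was not used. The submitters' processing notes name STAR, RSEM and the builds GRCh38 and hg38; versions, the annotation release and the strand setting are not given in the sources used here. Expected counts were rounded, and spike-ins were left out. None of the 10 genes had a fractional count in any library.

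Models were fitted with edgeR 4.0.16 under R 4.3.3 (quasi-likelihood test, two-sided, TMM, filterByExpr), on the 5 PF382 libraries, on all 7 by line, and on all 7 in 4 groups for the difference of the lines. Benjamini-Hochberg adjustment ran over every gene of a fit, and calls are adjusted p under 0.05. Standard errors were derived from the log2 change and F. CPM use TMM factors over all 7 libraries, so that 3 counts make 0.0343 to 0.0976 CPM. MOLT-14 ratios use a prior count of 2 and at least 5 CPM in either library. The fits were tested on simulated data.

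The members and gene lists were chosen with earlier results of these data known, which holds for the cell type markers too. Named genes are the 10, STAG2, up to 3 genes with the smallest adjusted p of each list, and the 5 genes of likest profile (centred log2 CPM, prior count 2); 1 gene that the rule takes is not reported here. Named outside the rule, after their values were seen, were EGR2, NR4A3, IER5L, SGK1, ARC, FOSB, HSPA8, HSPD1, HSPE1, HOOK2 and the T-cell and other markers given as checks. DESeq2 1.42.0, other scalings and filters, and leaving out each library were alternatives. Promoters came from a RefSeq table (9 of the 10 genes matched) and gene structure from GENCODE 29.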

Additional observations from a re-analysis of the deposited data

How the results depend on the processing

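No paired analysis was possible because the labels give the PF382 groups no shared replicate numbers. In PF382, JUNB lay within its error and changed sign: its log2 change was -0.13 under upper-quartile scaling, -0.044 with at least 1 CPM in 2 libraries, -0.053 among protein-coding genes, -0.19 in the libraries titled SA, and -0.11 to 0.25 when 1 library was left out (-0.11 without WT 2, -0.027 without KO 2, -0.017 without KO 3). FOSL2 gave -0.17 in the SA libraries. With 1 library left out it ran from -0.038 (without WT 2) to 0.63, NR4A1 from -1.02 to 0.18 (without WT 1) and DUSP1 from -0.63 to 0.074 (without WT 2). In the difference of the lines JUNB ran from -0.25 to 0.12 (without WT 1), with 0.037 without KO 1. EGR1 lost its call with no filter on low counts (adjusted p = 0.0658). Among SA libraries 1 of the 10 was called lower, with 114 genes higher and 192 lower over all genes, where fewer libraries entered the fit; 37.3% of the calls were then higher. Upper-quartile scaling gave 1824 genes higher. Leaving out 1 library gave 0 to 1 of the 10 higher, 2 to 5 lower, and 1194 to 3570 genes higher and 1077 to 2734 lower over all genes, against 2763 and 2548. Between the lines, leaving out 1 PF382 library gave 4 to 6 of the 10 lower, with no share over all genes taken for these counts. The EGR1 difference shrank to log2 -1.33 without the EV library, which leaves 1 MOLT-14 library. In the difference of the lines 0 of the 10 were called when a KO library was left out. Without a WT library some were called, but those fits rest on 1 WT library and no share over all genes was taken. In MOLT-14, total counts without TMM gave 2 of the 10 lower by 2-fold; TMM over that line alone, like leaving out libraries for the other immediate early genes, was an alternative chosen after seeing the data. Upper-quartile scaling moved the median of all genes between the lines to -0.15. FOS and EGR1 in KO libraries rest on 85 to 182 counts each, which limits their precision.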
